A study of Homo sapiens with 6 samples.

Results

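The 10 genes described here are the subunits, inhibitors and feedback targets of the transcription factor NF-kappaB: NFKB1, NFKB2, REL, RELA and RELB, the inhibitors NFKBIA, NFKBIB and NFKBIE, and the targets TNFAIP3 and CXCL8. They were chosen as listed symbols, with no threshold on their values, and all 10 are found among the 58395 genes of the files. RNA-seq was made from HCT116, a human colorectal cancer line, in 6 libraries. In 3 biological replicates the cells carry a lentiviral non-target hairpin (shControl), and in the other 3 a lentiviral hairpin against STBD1 (shSTBD1), a glycogen-binding protein proposed as an adaptor for the autophagy of glycogen. The infected cells were grown under drug selection. No cytokine or other NF-kappaB stimulus is named for the cells. Each group carries its own hairpin, so the loss of STBD1 and any other action of that hairpin cannot be told apart.

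NF-kappaB is a family of dimers that bind kappaB sites in DNA and switch on genes of inflammation and cell survival. In resting cells the IkappaB proteins, such as the product of NFKBIA, hold the dimers in the cytoplasm, and a signal from a receptor leads a kinase complex to mark these inhibitors for destruction. NFKBIA and TNFAIP3 are themselves switched on by NF-kappaB and shut the signal down again, while CXCL8 encodes a chemokine that draws neutrophils.

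Several of these genes are textbook targets of NF-kappaB itself, so the kappaB-like stretches are shown for the members that have one. RefSeq windows of GRCh38.p14, running from 250 bases before to 50 bases after a start, were available for 8 of the 10 members, RELB and NFKBIE being the others. A match to the kappaB consensus on either strand is present for 6 of the 8, compared with 13.3% of 27305 genes. The shorter motif GGAANTTCC, which reads the same on both strands and overlaps the consensus in 4 of the members, is present for 5 of the 8, compared with 1.16% of genes. The windows of RELA hold neither. Capitals mark the matched bases, and each stretch is given on the strand of its gene:
NFKB1, chr4:102501290-102501339, plus strand, match beginning 49 bases upstream of the start: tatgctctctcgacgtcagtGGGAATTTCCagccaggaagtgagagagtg
NFKB2, chr10:102394451-102394501, plus strand, 107 bases upstream: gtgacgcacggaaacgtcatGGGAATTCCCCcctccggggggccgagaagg
REL, chr2:60881507-60881557, plus strand, 47 bases upstream: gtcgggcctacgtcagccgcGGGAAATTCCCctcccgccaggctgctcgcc
NFKBIA, chr14:35404801-35404850, minus strand, 81 bases upstream: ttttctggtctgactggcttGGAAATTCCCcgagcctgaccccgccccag
NFKBIB, chr19:38899921-38899971, plus strand, 28 bases upstream: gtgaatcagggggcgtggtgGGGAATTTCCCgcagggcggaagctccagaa
TNFAIP3, chr6:137867172-137867221, plus strand, 67 bases upstream: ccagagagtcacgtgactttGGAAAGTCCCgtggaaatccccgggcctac
CXCL8, chr4:73740458-73740506, plus strand, 91 bases upstream: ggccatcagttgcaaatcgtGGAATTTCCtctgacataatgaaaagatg
One match is shown per gene. TNFAIP3 has a second 55 bases upstream, inside the stretch shown, NFKB2 has 3 more, 78 bases upstream of the same start and 176 and 21 bases upstream of another, and NFKBIB has a second that begins 39 bases after the start. A match describes letters only. Among the tested genes with a window the consensus is present in 17.5% of all 11171, in 15.3% of the 986 that are higher in shSTBD1 and in 17.4% of the 915 that are lower.

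The libraries hold 17689097 to 21668274 expected counts each. STBD1 checks the labels: its levels are 16.2, 15.7 and 14.4 CPM (counts scaled to library size, with TMM factors) in shControl and 11.6, 9.06 and 9.18 in shSTBD1, a log2 fold change of -0.64 (adjusted p = 2.9e-04, edgeR). The STBD1 call holds in 18 of 20 alternative settings and is lost with limma on log2 TPM (adjusted p = 0.065 and 0.067). The posterior SD that RSEM gives for the STBD1 count is 8.37% of the count. The leukocyte markers PTPRC and CD3E are at 0 in every library. Among the colorectal epithelial markers CDX1 is at 0, and VIL1 and CDH17 reach no more than 0.312 and 0.156 CPM. The summed level of the 10 epithelial markers is 3350 to 3590 CPM in shControl and 3970 to 4060 CPM in shSTBD1. Of the 7 epithelial markers tested, CDH1, KRT8, KRT18 and KRT19 pass the test and are higher in shSTBD1. They are 57.1% of those tested, beside 15.8% of all tested genes. The summed level of the 7 leukocyte markers is 10.5 to 12.2 CPM in shControl and 15 to 16.2 CPM in shSTBD1. Among them CD68 passes the test and is higher. The summed level of the 6 fibroblast markers, mostly COL1A1, is 31.4 to 39.5 CPM in shControl and 37.3 to 40.9 CPM in shSTBD1, with LUM at 0. Of 5 genes of the RNA interference machinery, AGO2 is higher in shSTBD1 and DICER1 and DGCR8 are lower (60% pass). Of 9 tested interferon-stimulated genes, EIF2AK2 passes and is lower (11.1%). These calls hold in 11 to 14 of 20 alternative settings. The parts of all these shifts in the results below were not tested.

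One of the 10 genes passes the test. NFKB1 is lower in shSTBD1 by 13.5%, and no other subunit, inhibitor or feedback target has an adjusted p under 0.05 by edgeR's quasi-likelihood test. Of all genes, 15.8% of the 15566 tested pass, and 21.9% of the genes with at least 10 CPM, as 9 of the members have. The count of members is thus near the background. The median log2 fold change of the 10 is 0.067, with 6 above and 4 below 0, beside 0.0023 over all tested genes. For 5 of the 10 the 3 shControl and 3 shSTBD1 levels in CPM do not overlap, compared with 33.6% of tested genes. NFKB1 goes downwards, and NFKB2, NFKBIB, TNFAIP3 and CXCL8 go upwards. In bulk RNA, fewer cells of a kind and less RNA per cell cannot be told apart.

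**Figure D1:**
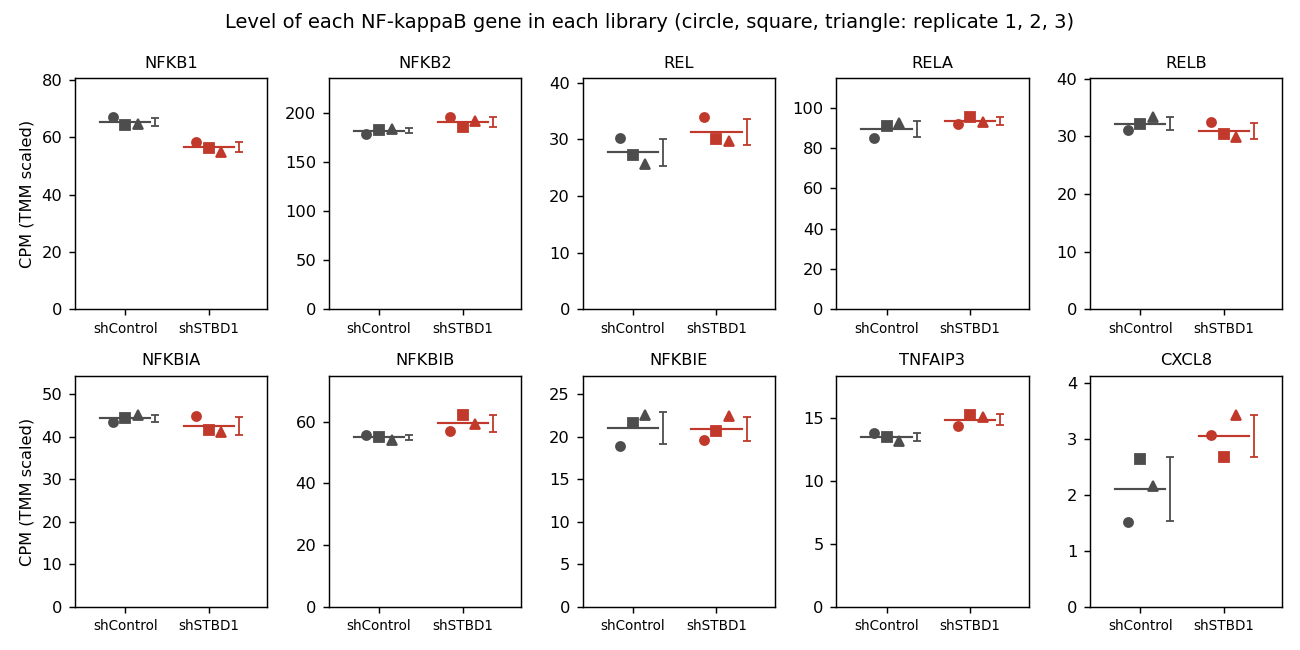
Level of each gene in CPM (vertical axis, from 0) in the shControl and shSTBD1 libraries, with the group mean as a line and the SD as a bar. NFKB1 is between 54.9 and 58.5 CPM in shSTBD1, under all of the shControl libraries, while REL, RELA, RELB, NFKBIA and NFKBIE overlap between groups.

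NFKB1 encodes the precursor of a subunit that lacks a transactivation domain. Its level is 67.1, 64.2 and 64.7 CPM in shControl and 58.5, 56.3 and 54.9 CPM in shSTBD1. Every shSTBD1 library is below every shControl library. The group means are 65.3 ± 1.55 and 56.5 ± 1.81 CPM (SD, n = 3). The log2 fold change is -0.21, with a 95% interval from -0.30 to -0.12 (adjusted p = 0.0029, edgeR). NFKB1 is also apart in TPM, the level per transcript length, with 21.4 to 22.4 in shControl and 18.2 to 19.2 in shSTBD1. The fold change runs from -0.24 to -0.19 over 20 alternative settings and passes in 17 of them. The 3 that do not pass use the effective lengths estimated by RSEM, either as offsets (adjusted p = 0.064) or through limma on TPM (adjusted p = 0.10).

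NFKB2, the precursor of the non-canonical subunit, is the most abundant member per length. Its level is 179, 183 and 184 CPM in shControl and 196, 186 and 192 CPM in shSTBD1. The groups do not overlap in CPM, but the gap is small. In TPM they overlap, with 81.7 to 86.3 in shControl and 85.5 to 91.0 in shSTBD1. The log2 fold change is 0.071 (95% interval 0.0028 to 0.14) and does not pass (adjusted p = 0.15, edgeR). The NFKB1 to NFKB2 ratio of CPM, chosen after the values were seen, is 0.375, 0.35 and 0.352 in shControl and 0.298, 0.302 and 0.286 in shSTBD1. In CPM every shSTBD1 library is below every shControl library for NFKB1 and above for NFKB2, so these ratios could not overlap. The two-sided exact permutation p of 0.1, the smallest that 3 against 3 libraries allow, was thus fixed in advance. The ratio adds nothing to the values of NFKB1 and NFKB2.

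RELA, the transactivating partner in the canonical dimer, is at 85.3, 91.1 and 92.6 CPM in shControl and at 91.9, 95.6 and 93.1 CPM in shSTBD1. The groups overlap. The log2 fold change of RELA is 0.062, with an interval from -0.021 to 0.15 (adjusted p = 0.32, edgeR). RELB, the partner of the non-canonical subunit, has 31.2, 32.1 and 33.4 CPM in shControl and 32.5, 30.4 and 29.9 CPM in shSTBD1. Its highest shSTBD1 library lies inside the range of shControl. RELB has a log2 fold change of -0.058, with an interval from -0.18 to 0.060 (adjusted p = 0.53, edgeR).

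REL encodes the subunit best known from lymphocytes. Its level is 30.2, 27.3 and 25.6 CPM in shControl and 34, 30.1 and 29.8 CPM in shSTBD1. The groups overlap narrowly, since shControl replicate 1 lies just above shSTBD1 replicates 2 and 3. Replicate 1 is the highest of its group on both sides. The log2 fold change is 0.17 (95% interval 0.027 to 0.32, adjusted p = 0.10, edgeR). REL passes in 4 of 20 alternative settings, among them the fit without shControl replicate 1 (log2 fold change 0.24, adjusted p = 0.019). The assignment of counts to REL by RSEM is less certain than for the other members. REL shares 33.3% of its exon bases with an unnamed gene on the same strand, and the posterior SD of its count is 4.05% of the count, whereas it is 0 for the other 9.

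Of the inhibitors, none passes. NFKBIA, the main feedback inhibitor, is at 43.4, 44.4 and 45.2 CPM in shControl and 44.9, 41.6 and 41 CPM in shSTBD1. The groups overlap, since replicate 1 of shSTBD1 is as high as the controls. The log2 fold change of NFKBIA is -0.063, with an interval from -0.17 to 0.043 (adjusted p = 0.43, edgeR). NFKBIB, a related inhibitor, has 55.7, 55 and 53.9 CPM in shControl and 56.9, 62.3 and 59.2 CPM in shSTBD1. All 3 shSTBD1 libraries are above the controls, and the log2 fold change of 0.12 does not pass (interval 0.023 to 0.21, adjusted p = 0.087, edgeR). NFKBIE, a further IkappaB protein, is at 18.9, 21.6 and 22.6 CPM in shControl and 19.6, 20.7 and 22.4 CPM in shSTBD1. The shSTBD1 range lies within that of shControl, and the log2 fold change is -0.0077 with an interval from -0.17 to 0.15 (adjusted p = 0.96, edgeR).

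**Figure D2:**
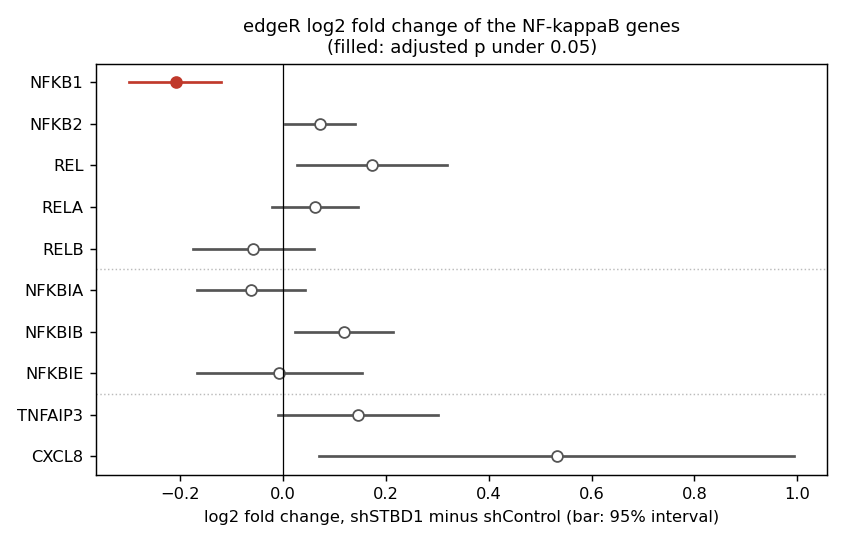
Log2 fold change of shSTBD1 minus shControl (horizontal axis) for each gene, as points with 95% intervals, filled where the adjusted p is under 0.05. Only NFKB1, at -0.21, is filled, and the interval of CXCL8, from 0.071 to 0.99, is the widest.

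The feedback targets both have higher means in shSTBD1, without passing. TNFAIP3, a ubiquitin-editing enzyme that restrains the pathway, is at 13.8, 13.5 and 13.2 CPM in shControl and 14.4, 15.3 and 15.1 CPM in shSTBD1. The groups are apart in CPM, and the log2 fold change is 0.15 (interval -0.010 to 0.30, adjusted p = 0.20, edgeR). In TPM, which uses the transcript lengths, TNFAIP3 overlaps, with 5.42, 5.56 and 5.25 in shControl and 5.13, 4.62 and 7.09 in shSTBD1. CXCL8 is the rarest member, with 29, 55 and 38 counts in shControl and 56, 58 and 68 in shSTBD1. These are 1.51, 2.63 and 2.15 CPM against 3.06, 2.67 and 3.43 CPM. The highest control is just below the lowest shSTBD1 library, so the groups are barely apart. Of the 10 members CXCL8 has the largest log2 fold change, 0.53 (interval 0.071 to 0.99), and does not pass (adjusted p = 0.11, edgeR). At so few counts a shift of this size is not firmly measured, and the fold change runs from 0.34 to 0.76 over the alternative settings.

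**Figure D3:**
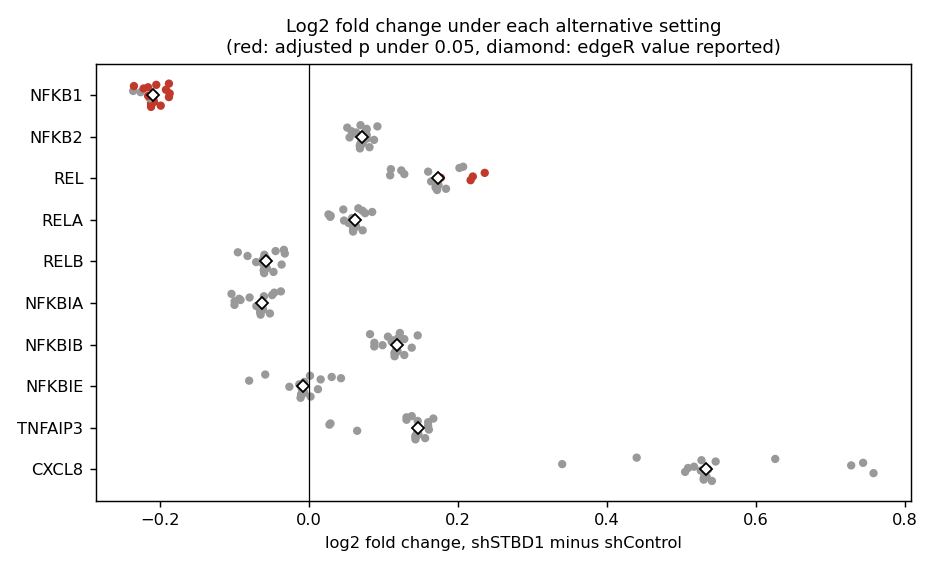
Log2 fold change (horizontal axis) of each gene under each alternative setting, in red where the adjusted p is under 0.05, with the reported value as a diamond. NFKB1 stays between -0.24 and -0.19, REL is red in 4 settings, and the points of NFKBIE lie on both sides of 0.

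Levels of different genes can be compared only per length. On the TPM scale the order in shControl is NFKB2 (84.4 ± 2.4, mean ± SD, n = 3), RELA (53.4 ± 1.64), NFKBIB (49.4 ± 1.4), NFKBIA (46.4 ± 3.23), NFKB1 (21.9 ± 0.489), RELB (19.2 ± 1.24), NFKBIE (11.8 ± 1.56), TNFAIP3 (5.41 ± 0.155), REL (4.16 ± 0.19) and CXCL8 (1.75 ± 0.515). NFKBIB and NFKBIA overlap in their range over libraries, and no other neighbours do. The order is the same in shSTBD1, but there RELA overlaps NFKBIB, NFKB1 (18.6 ± 0.555 TPM) overlaps RELB (18.4 ± 1.14 TPM), and TNFAIP3 overlaps REL. The inhibitor transcripts NFKBIB and NFKBIA are thus of the same order of level as RELA, and REL and CXCL8 are the scarcest.

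**Figure D4:**
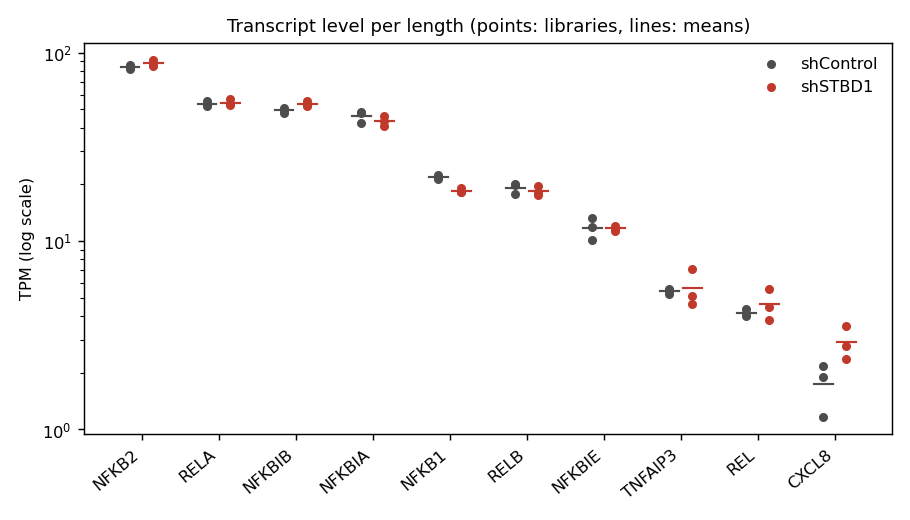
TPM of each gene (vertical axis, log scale) in each library, with lines at the group means and genes ordered by the mean in shControl. NFKB2 is highest, at 84.4 TPM in shControl and 88.2 TPM in shSTBD1, and CXCL8 lowest, at 1.75 and 2.91 TPM.

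Over the 6 libraries, the 5 genes with the pattern most like NFKB1, by Pearson correlation of log2 CPM among 10123 genes, are SMAD3 and PTTG1IP (0.998 each) and CAPN2, USP24 and UHMK1 (0.997 each). The 5 most like CXCL8 are AMPD3 and CHCHD4 (0.991 each), SUCLG1 and IKBKG (0.985 each) and S100A13 (0.984). These are the extremes of many correlations over few points that share their libraries, and are a description only.

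Beyond the 10 members, the signalling chain and further targets were described by 5 lists holding 76 genes, of which 60 were tested. TRAF1, BIRC3 and NFKBIZ stand in 2 lists each and are counted in both below. Of the 60 tested genes, 7 are higher and 9 lower in shSTBD1, 26.7% of those tested, beside the 15.8% and 21.9% above. Their median log2 fold change is -0.037. The calls go both ways in 3 of the 5 lists. The share that passes is 22.2% of the tested receptors, 29.4% of the adaptors and ubiquitin ligases and 10% of the kinases. It is 21.4% of the other negative regulators and 38.5% of the further target genes.

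Among 9 tested activating receptors, TNFRSF11A, also known as RANK, is higher (log2 fold change 0.50, adjusted p = 0.043) and LTBR, the lymphotoxin receptor that feeds the non-canonical arm, is lower (-0.11, adjusted p = 0.048). Both calls are close to the threshold and are lost in 9 and 12 of 20 alternative settings. Among 17 adaptors and ubiquitin ligases, BIRC2, a ligase of receptor complexes (0.26, adjusted p = 0.0031), and TRADD, the adaptor of the TNF receptor (0.30, adjusted p = 0.022, lost in 8 of 20 alternative settings), are higher. RIPK1, the kinase scaffold of that complex (-0.23, adjusted p = 0.0058), TRAF3, which holds down the non-canonical kinase (-0.23, adjusted p = 4e-04), and MALT1, a paracaspase (-0.28, adjusted p = 7.2e-04), are lower. Among 10 kinases and subunits of kinase complexes, 1 passes: MAP3K14, the kinase that starts the non-canonical arm, at 18.9, 19.4 and 19.2 CPM in shControl and 13.7, 14.6 and 15 CPM in shSTBD1 (-0.41, adjusted p = 8.1e-04, edgeR). The groups of MAP3K14 are well apart in CPM but only narrowly in TPM, with 5.96 to 7.02 in shControl and 3.96 to 5.83 in shSTBD1. Its call is lost with effective-length offsets (adjusted p = 0.12, edgeR). The remaining 9 genes, with the catalytic subunits CHUK and IKBKB and the regulatory subunit IKBKG of the IkappaB kinase among them, do not pass.

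Of 14 other negative regulators, 3 are higher and none lower: NKIRAS1, which slows the decay of IkappaB (0.42, adjusted p = 4.1e-04), TAX1BP1, a partner of TNFAIP3 (0.16, adjusted p = 0.010), and ITCH, a ubiquitin ligase that works with them (0.11, adjusted p = 0.042, lost in 9 of 20 alternative settings). These calls are 21.4% of the list, beside 15.8% of all tested genes and 21.9% of those with at least 10 CPM. The median of the list is 0.018. Of 26 further target genes found, 13 were tested and 13 fell below the filter on low counts, among them IL6, TNF and CCL20. One is higher. IER3, an early response gene of cell survival, is at 290, 345 and 345 CPM in shControl and 474, 472 and 480 CPM in shSTBD1 (0.54, adjusted p = 1.6e-06, edgeR). Its libraries do not overlap. Lower are BCL2L1, which encodes an inhibitor of apoptosis (-0.34, adjusted p = 1.1e-05), TNFAIP2 (-0.24, adjusted p = 3.8e-04), PLAU, the urokinase (-0.26, adjusted p = 0.0054), and CFLAR, an inhibitor of caspase activation (-0.24, adjusted p = 0.017). TNFAIP2 overlaps in TPM, with 42.6 to 54.9 in shControl and 43.7 to 47 in shSTBD1, and its log2 fold change is -0.077 with effective-length offsets (adjusted p = 0.63). CFLAR is at -0.16 with those offsets (adjusted p = 0.42) and its call is also lost without shSTBD1 replicate 1 or 2 (adjusted p = 0.085 and 0.097). Of the 16 called genes, IER3 and BCL2L1 pass in all 20 alternative settings, and the other 14 do not pass with limma on TPM. The target genes therefore do not move in 1 direction, and their list has a median of -0.080.

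**Figure D5:**
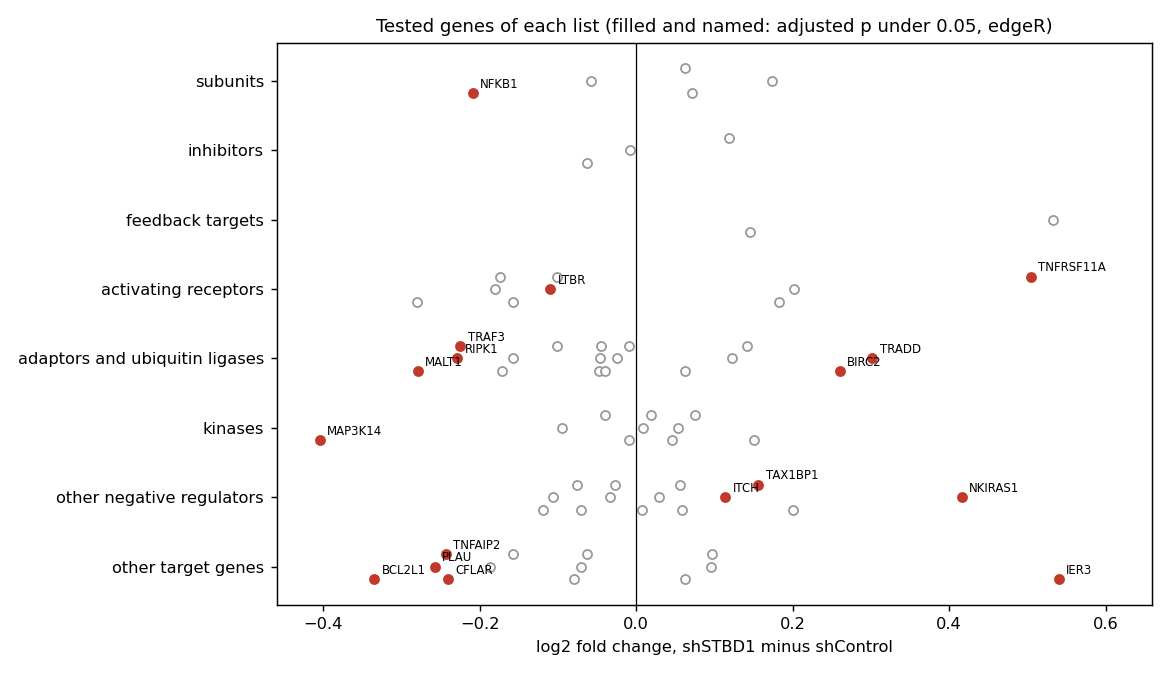
Log2 fold change of shSTBD1 minus shControl (horizontal axis) of each tested gene, in rows by list, filled and named where the adjusted p is under 0.05. Named genes lie on both sides of 0, from MAP3K14 at -0.41 to IER3 at 0.54, and NFKB1 is the one named member.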

How the data were processed

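The authors removed low-quality reads, aligned to hg38 with STAR 2.7.1a and quantified genes with RSEM 1.3.1, as the methods and the submitters' processing notes give. They deposited, per library, expected counts of each gene, which are not normalized and are not whole for 19.9% to 20.4% of genes above 0, and TPM, which the authors' RSEM run scaled to a fixed total. The deposited RSEM length, effective length and posterior SD of the count were also read. Ensembl release 93 gene models were used upstream. The strand setting of the counting is not given in the sources used here, so RELA, NFKBIB and TNFAIP3, which each share up to 1.89% of their exon bases with an opposite-strand gene, cannot be separated from it there.

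Expected counts were rounded, filtered with filterByExpr (minimum count 10), scaled by TMM (factors 0.979 to 1.009) and compared with the quasi-likelihood test of edgeR 4.0.16 under R 4.3.3 in all 6 libraries without covariates, with Benjamini-Hochberg adjustment over 15566 genes. A call is an adjusted p under 0.05. Intervals are from the fit's SE. Symbols came from GENCODE, for 57754 of the 58395 genes; SOD2 was not matched. The 10 members, the other lists and the tests were chosen with earlier results of these data known. All members and the called genes of the lists are named. The paper describes the libraries as biological replicates. Deviations of same-numbered libraries correlate only weakly (0.0708, 0.0676 and -0.00841), beside -0.0741 to 0.0101 for the other pairs. The numbers were not taken to pair the libraries in the reported fit. Alternatives were DESeq2 1.42.0, other scalings, filters and offsets, a replicate block, limma 3.58.1 on log2 TPM with a pseudocount of 1 or 0.1, and leaving out each library.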

Additional observations from a re-analysis of the deposited data

How the results depend on the processing

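Of 199 values, 10 members under 20 alternatives with CXCL8 lacking an adjusted p in DESeq2, 186 kept their direction and side of the threshold, 3 lost the call (NFKB1) and 4 gained it (REL). NFKBIE changed sign in 6: 0.0021 with library size alone, 0.012 with effective-length offsets, and from -0.080 to 0.043 on leaving out each library. With effective-length offsets 0 members, 3 pathway genes and 510 of all tested genes pass, with limma on log2(TPM + 1) 0, 2 and 292, and with log2(TPM + 0.1) 0, 2 and 290, against 1, 16 and 2453 in the reported fit. The cause was not tested. Members passing are 2 with gene-length offsets, 2 with the replicate block, 2 with the replicate block and gene-length offsets together, and 1 to 2 on leaving out each library (2 without shControl replicate 1). In all cases with 2, the added gene is REL. The replicate block calls 2579 genes, and 2 of 3 libraries of each group correlate best with their own number. Leaving out each library gives 1409 to 2577 genes, lowest without shSTBD1 replicate 2, with 1570 and 1497 without shSTBD1 replicates 1 and 3.

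With 3 libraries a group and 1 hairpin per group, small changes of scarce genes such as CXCL8 cannot be measured closely, and the files analysed here hold RNA alone.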
